A study of Mus musculus with 6 samples.

Results

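Clu (Ensembl gene ENSMUSG00000022037), which encodes clusterin, was measured in single nuclei of mouse intestinal organoids, as 1 gene of the 31319 in the count matrices. It was selected on results of these data that were already known, namely its level in cluster 7 of the deposited clustering and its values in the media, so its own levels below are a description without a test. A nucleus with at least 1 unique molecular identifier (UMI, 1 counted RNA molecule) of Clu was called Clu-positive, which applied to 4830 of 38154 nuclei. Clu lies on the plus strand of chromosome 14 from 65968483 to 65981547 (GRCm38). It is annotated as protein coding, and no other annotated gene overlaps it.

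Clusterin is a secreted glycoprotein that binds misfolded proteins outside the cell and restrains complement. In the small intestine the stem cells at the crypt base express Lgr5 and renew the epithelium, whereas Clu marks the rare revival stem cells that appear after damage and can rebuild the Lgr5 compartment. That state shares genes with the fetal epithelium and with targets of YAP, the transcriptional co-activator held back by the Hippo kinases.

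The organoids are epithelial cultures grown from the jejunum of C57BL/6 mice aged 8 to 12 weeks. They were kept in medium conditioned by quiescent mouse embryonic fibroblasts (QCM) or by senescent ones (SCM), with 3 samples per medium, and in the study's methods the concentrated medium was mixed with an organoid growth medium. Quiescence came from low serum and senescence from X-rays or doxorubicin, and the labels do not say which of these agents made the SCM of a given sample. The question behind the design is what the secretions of senescent fibroblasts do to the epithelium. No fibroblasts were part of the sequenced cultures, and in cluster 7 the 8 fibroblast markers summed to between 0 and 3.95 CPM (UMIs of a gene scaled to a common total), with all 8 at 0 in 4 samples, 7 in SCM replicate 2 and 5 in QCM replicate 3. The 6 immune markers summed to between 0 and 10.4 CPM there. The labels do not say whether samples came from separate mice, so the spread between these samples may be technical. The p-values below come from counts summed per sample. For single genes compared by Clu status they did not always cover the spread between samples.

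The samples were uneven. SCM replicate 1 held 430 nuclei, and the others held 3791 to 10833. QCM replicate 1 had a median of 8260 UMIs per nucleus, against 1578 to 3157 in the others, and 330 of 37824 barcodes occurred in more than 1 library. Values without single samples are given where they moved.

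Clu was concentrated in cluster 7. This cluster held 3.78% of the nuclei and 52.3% of all Clu UMIs, 6437 of 12299. Most of these came from SCM replicate 2, and without it the share was 24.7% (1178 of 4776). Sample by sample, cluster 7 held 18.8%, 41.9% and 18.3% of the Clu UMIs in QCM and 16.2%, 69.9% and 31.6% in SCM. Its Clu level was 238, 225 and 113 CPM for the cultures in QCM, replicates 1 to 3. For those in SCM it was 501, 1545 and 243 CPM. Among clusters of at least 10 nuclei, cluster 7 ranked first in each of the 6 samples, at 2.09 to 12.4 times the next. Its mean difference from the rest of the sample was 3.02 ± 0.91 on the log2 scale (SD, n = 6), above 0 in 6 of 6 samples.

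The name of cluster 7 was checked against marker genes. Of 10 fetal markers, 8 stood at least 2-fold above the other nuclei, which are Anxa1, Anxa3, Anxa10, Ly6a, Ly6d, Msln, Il1rn and Krt7. The cluster is called fetal-like here. These genes helped to define the cluster, so their elevation in it is no separate result.

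Outside cluster 7 the level of Clu was lower, with gradual steps from cluster to cluster. Next in order came cluster 13, at 0.41 ± 0.52 on the log2 scale relative to the rest (SD, n = 4), and cluster 1, at 0.16 ± 0.39 (SD, n = 6). The neighbours in this order from cluster 13 down to cluster 2 differed by less than their SDs. Cluster 14 came last at -2.59 ± 1.28 (SD, n = 3), without SCM replicate 1, which had 7 nuclei of it. Those 7 nuclei held 291 Clu UMIs, or 222 CPM, the next level after cluster 7 in that sample. Within single samples the other clusters had a median of 33.1, 8.64 and 20.8 CPM in the QCM cultures, and of 37.5, 122 and 42.0 CPM in the SCM cultures.

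**Figure D1:**
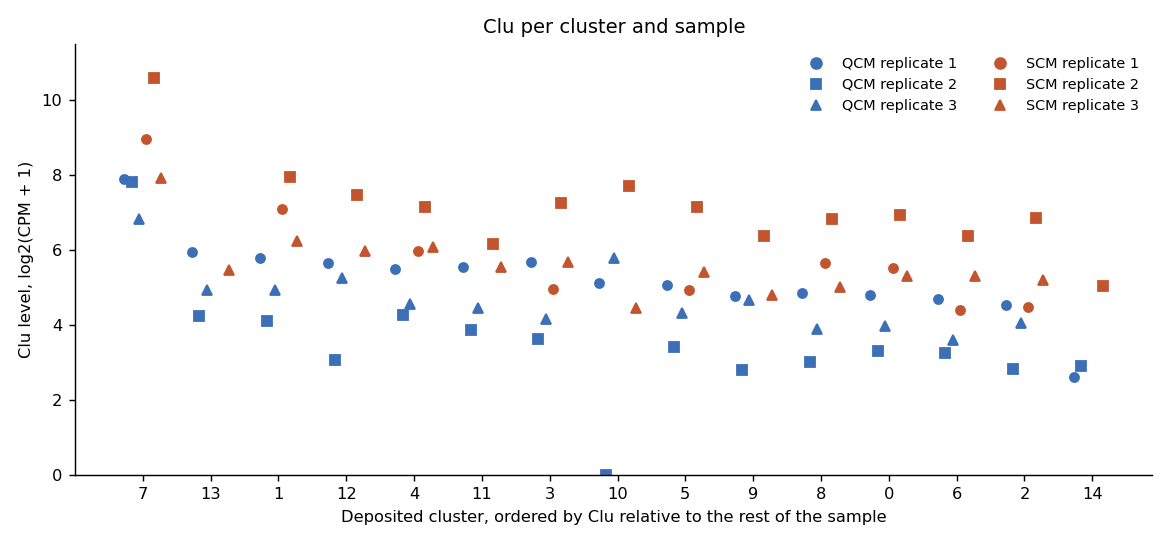
Clu level as log2(CPM + 1) on the vertical axis for each deposited cluster with at least 10 nuclei, 1 point per sample (blue QCM, orange SCM, shape by replicate). Cluster 7, on the left, lies above the other clusters of the same sample in all 6 samples (the 7 cluster 14 nuclei of SCM replicate 1 are too few to be drawn), and the SCM points lie higher than most QCM points across the axis.

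Genes with a pattern like that of Clu were then ranked. Over the 15 clusters, with UMIs pooled over the 6 samples, the 8 genes whose log2(CPM + 1) followed Clu most closely among 12180 genes were Ccnd2 (Pearson r = 0.958), Ccnd1 (0.952), Anxa1 (0.946), Ctnnb1 (0.942), Kif5b (0.934), Lmna (0.931), Krt7 (0.930) and S100a6 (0.927). Ccnd1 and Ccnd2 encode D-type cyclins that drive entry into the cell cycle, Ctnnb1 encodes β-catenin, and Lmna encodes the A-type lamins of the nuclear envelope. Ccnd2 stood at 831 CPM in cluster 7 and 285 CPM in the other nuclei. Anxa1, a phospholipid-binding annexin of the fetal list, stood at 181 and 14.9 CPM. These correlations run over clusters that share libraries, and cluster 7 had the highest level of each of these 8 genes. Without cluster 14, in which 291 of 328 Clu UMIs came from SCM replicate 1, Fn1 (fibronectin) ranked 2nd and Krt7 fell to rank 9. Without SCM replicate 2, which gave 5259 of the 6437 Clu UMIs of cluster 7, only Anxa1, Ctnnb1 and S100a6 stayed among the first 8, and r for the 8 genes was 0.746 to 0.944.

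Within cluster 7 the Clu UMIs sat in few nuclei. Of the 324 Clu-positive nuclei in it, 158 (48.8%) had 1 Clu UMI, against 82.5% of the 4506 outside. Nuclei with at least 10 Clu UMIs numbered 87 in the series, and 82 of them were in cluster 7. The remaining 5 were 3 nuclei of cluster 14 in SCM replicate 1, 1 of cluster 3 in SCM replicate 2 and 1 of cluster 9 in QCM replicate 3.

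Such nuclei occurred in both media. At least 5 Clu UMIs were found in 3 of 145, 5 of 216 and 5 of 336 cluster 7 nuclei of QCM replicates 1, 2 and 3, which is 2.07%, 2.31% and 1.49% (Wilson 95% intervals 0.706 to 5.91, 0.993 to 5.30 and 0.637 to 3.44). In SCM replicates 1, 2 and 3 they were found in 3 of 17, 65 of 204 and 23 of 524, which is 17.6%, 31.9% and 4.39% (6.19 to 41.0, 25.9 to 38.5 and 2.94 to 6.50). The 3 SCM shares were above the 3 QCM shares, with overlapping intervals for SCM replicate 3 and each QCM replicate. These shares are not adjusted for depth, and how many other genes separate the media in this way was not counted. The intervals here and below cover counting error only.

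A small number of nuclei set the level of the cluster. At least 50% of the cluster 7 Clu UMIs came from 1, 1 and 3 nuclei in the QCM cultures, and from 1, 7 and 9 nuclei in the SCM cultures. The highest single nucleus held 238, 83 and 20 Clu UMIs in the QCM replicates and 42, 545 and 39 in the SCM replicates. The nuclei with at least 5 Clu UMIs were also deeper than those with none, with median totals of 10978 to 109159 UMIs against 1508 to 6777. Their median mitochondrial share was lower in all 6 samples, at 0.313% to 0.869% against 0.932% to 3.52%. Of these nuclei, 0 were among the 6% with the highest doublet scores of their sample.

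**Figure D2:**
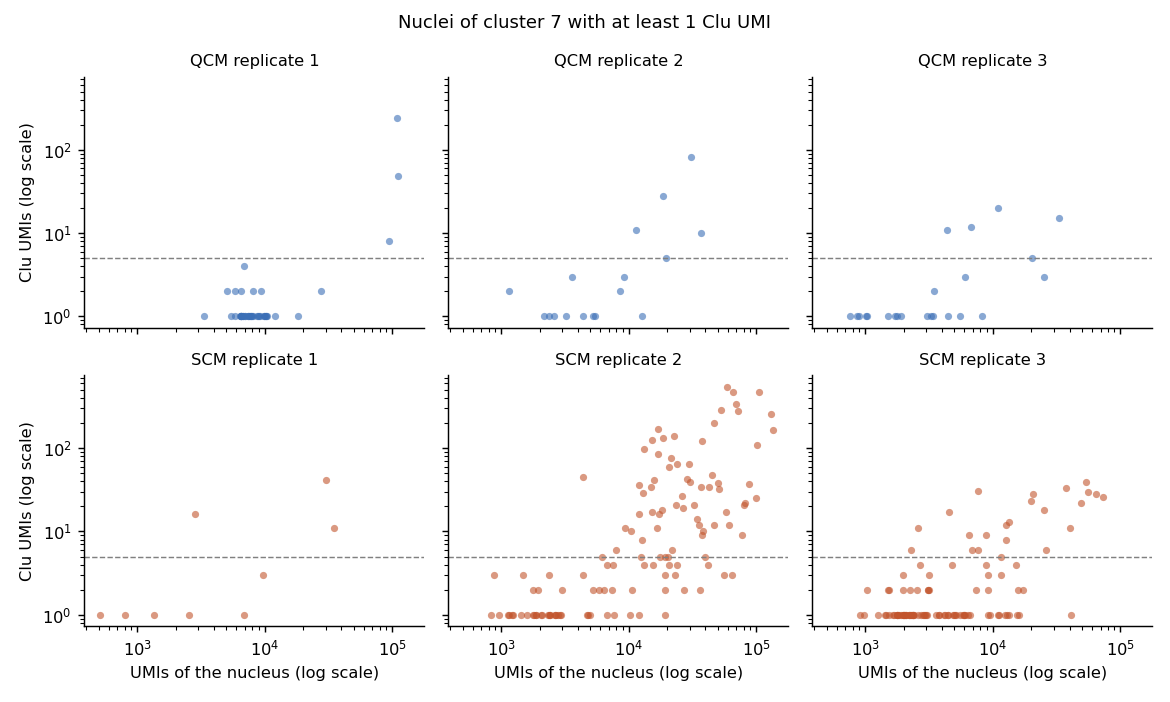
Clu UMIs of each Clu-positive nucleus of cluster 7 against its total UMIs, both on log axes, 1 panel per sample (blue QCM, orange SCM); the dashed line marks 5 Clu UMIs. Nuclei above the line were found in all 6 samples, 3 to 5 per QCM sample and 65 in SCM replicate 2, and lie towards the right of each panel.

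The levels in SCM were compared with those in QCM for the whole sample, for cluster 7 and for the other nuclei. Over all nuclei the QCM cultures had 44.6, 15.2 and 23.6 Clu CPM in replicates 1, 2 and 3, with a mean of 27.8 ± 15.1 (SD, n = 3). The SCM cultures had 117, 362 and 60.9 CPM, with a mean of 180 ± 160 (SD, n = 3). Every SCM sample lay above the QCM samples, as was the case for 4.99% of the 19046 genes tested. Fitted by edgeR, Clu was higher in SCM by 2.44 ± 0.71 on the log2 scale (SE), the 12th highest value of these genes, by 1.42 ± 0.53 without SCM replicate 2, and by 3.15 ± 0.76 without QCM replicate 1. In the same fit 0 genes (0%) were called at an adjusted p of 0.05, 866 lay below an unadjusted 0.05, and DESeq2 called 28.

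The same ratio was taken inside and outside cluster 7. In cluster 7, whose values are given above, the means were 192 ± 68.7 CPM in QCM and 763 ± 690 CPM in SCM (SD, n = 3 each), and the log2 ratio was 1.87 ± 0.59 (SE). Every SCM sample lay above the QCM samples there too, as for 10.2% of 10515 genes. Without SCM replicate 2 the log2 ratio in cluster 7 was 0.81 ± 0.43. The fit for cluster 7 called 0 genes (0%), with 1254 below an unadjusted 0.05, and DESeq2 called 111.

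Outside cluster 7 the QCM cultures had 37.5, 9.11 and 20.04 Clu CPM and the SCM cultures 102, 130 and 45.2 CPM, each in the order of replicates 1 to 3. Again every SCM sample lay above the QCM samples, as for 4.19% of 18739 genes, and the log2 ratio was 1.79 ± 0.60 (SE). Of the 398 Clu UMIs outside cluster 7 in SCM replicate 1, 235 came from 1 nucleus of cluster 14. Without cluster 14 the ratio was 1.40 ± 0.67, and without QCM replicate 1 it was 2.59 ± 0.53. This fit called 0 genes (0%), with 689 below an unadjusted 0.05, and DESeq2 called 3.

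The difference was also taken cluster by cluster. Clu could be fitted in 12 clusters, and its log2 ratio was above 0 in all 12, from 0.85 ± 0.61 in the tuft-like cluster 11 to 2.14 ± 0.50 in cluster 0. It was 1.87 ± 0.57 in the enterocyte-like cluster 8. The cells of cluster 8 were assumed to lack Clu, although 3 of its 1416 nuclei held at least 5 Clu UMIs. A background of Clu UMIs that was higher in SCM was not tested as a source of the ratio outside cluster 7. Clusters 9, 10 and 11 entered with 2 SCM samples, and whether the ratio differed between clusters was not tested. The fits share the same libraries, so the 12 ratios are not 12 separate observations. How many other genes were above 0 in all 12 was not counted. With the nuclei of at least 10 Clu UMIs left out, the log2 ratios were 1.45 ± 0.63 over all nuclei, 1.33 ± 0.28 in cluster 7 and 1.44 ± 0.65 outside it.

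**Figure D3:**
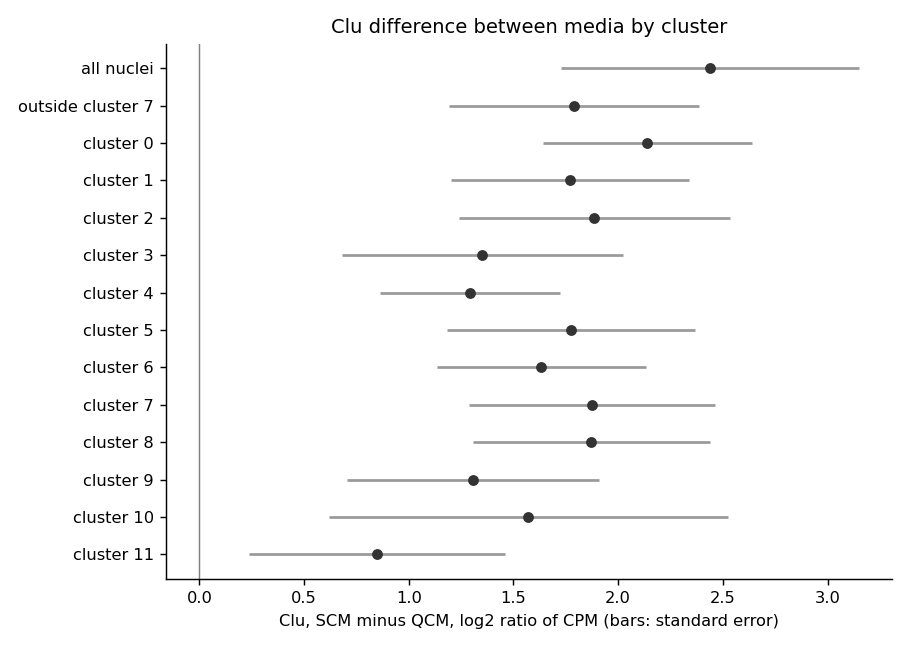
Clu level in SCM relative to QCM on the log2 scale, with its standard error from edgeR, for all nuclei, for those outside cluster 7 and for each of the 12 clusters in which Clu could be fitted. All points lie to the right of 0, from 0.85 in cluster 11 to 2.44 over all nuclei.

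The share of Clu-positive nuclei depends on depth, so each nucleus was also thinned to 1000 UMIs. After thinning, 3.93%, 1.16% and 2.02% of nuclei were Clu-positive in QCM replicates 1, 2 and 3 (Wilson 95% intervals 3.36 to 4.60, 0.937 to 1.43 and 1.74 to 2.35). In SCM replicates 1, 2 and 3 the shares were 7.10%, 15.3% and 5.31% (4.78 to 10.4, 14.3 to 16.3 and 4.90 to 5.76). The groups did not overlap at this depth. For how many of all genes such shares separate the media was not counted. After thinning to 2000 UMIs the groups overlapped, with 8.47%, 2.19% and 3.14% in QCM against 7.66%, 25.05% and 7.96% in SCM, since QCM replicate 1 then lay above SCM replicates 1 and 3. Without thinning the shares were 32.3%, 2.75% and 3.72% in QCM and 22.6%, 35.7% and 10.3% in SCM, and the deep QCM replicate 1 then exceeded 2 of the SCM samples.

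In cluster 7 the thinned shares were 4.14%, 1.96% and 3.79% in QCM (replicates 1 to 3), and 14.3%, 35.0% and 7.56% in SCM (likewise). In the enterocyte-like cluster 8, whose absorptive cells were assumed to lack Clu, they were 1.60%, 0.806% and 1.95% in QCM and 9.09%, 11.7% and 4.13% in SCM. Median depths in cluster 8 were 1941 to 11314 UMIs, against 1565 to 7080 in cluster 7. SCM replicate 1 had 14 nuclei of cluster 7 and 11 of cluster 8 to thin. The share in cluster 7 was above that in cluster 8 in 6 of 6 samples, and the shares in cluster 8 were themselves higher in SCM. By this share cluster 7 ranked first in SCM replicates 1 and 2 only. It ranked 6 of 15 clusters in QCM replicate 1, where clusters 9 and 12 reached 9.30% and 9.09%, then 3 of 15 in QCM replicate 2, 2 of 14 in QCM replicate 3 and 3 of 14 in SCM replicate 3. Cluster 7 thus stood first in all samples by its level of Clu but not by its share of positive nuclei. Over all nuclei outside cluster 7 the shares were 3.92%, 1.13% and 1.96% in QCM and 6.77%, 14.4% and 5.19% in SCM, below that of cluster 8 in SCM replicate 1 and above it in the other 5 samples, by little in QCM replicate 3. In QCM replicate 1, for example, clusters 6 and 2 had lower shares than cluster 8, at 0.610% and 0.849%. In the series 3 of the 1416 cluster 8 nuclei held at least 5 Clu UMIs. Whether the Clu UMIs of cluster 8 are background was not tested, nor was RNA free in the droplets as their source.

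Genes that differed with Clu inside cluster 7 were then sought by comparing its Clu-positive with its Clu-negative nuclei from the same samples, with Clu itself left out. After thinning to 1000 UMIs, 3 samples had at least 10 nuclei of each kind (QCM replicate 3, SCM replicates 2 and 3, with 10, 70 and 39 Clu-positive nuclei). Of 2649 genes tested, 39 (1.47%) passed an adjusted p of 0.05 in edgeR, 36 higher and 3 lower in Clu-positive nuclei. The cluster had been drawn on the expression of such genes, so the comparison describes variation within its borders.

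Msln and Krt7, both among the 10 fetal markers, were higher in the Clu-positive nuclei. Msln, the surface glycoprotein mesothelin, was at 200, 415 and 334 CPM in Clu-positive nuclei of QCM replicate 3 and SCM replicates 2 and 3, against 86.6, 84.6 and 41.9 CPM in Clu-negative ones. The log2 ratio was 2.37 ± 0.40 (edgeR adjusted p = 1.69e-06). The low-count filter could admit a gene by its level in the Clu-positive nuclei alone. For such genes, Msln among them, the direction is therefore no independent evidence. Lamb3, a laminin chain, rose by 2.16 ± 0.39, the membrane-repair gene Myof by 1.89 ± 0.37, the matricellular gene Thbs1 by 1.89 ± 0.38, Cdh13, a cadherin, by 1.64 ± 0.31 and the scaffold gene Ahnak by 1.57 ± 0.27. The simple epithelial keratin gene Krt18 rose by 1.33 ± 0.24, Krt7 by 1.31 ± 0.34 and S100a6, a calcium-binding gene of the fetal list, by 1.23 ± 0.22. Apob, the apolipoprotein of chylomicrons, rose by 1.53 ± 0.25, the nuclear long non-coding RNA Neat1 by 1.30 ± 0.22, and Fam213a, a redox-related gene, by 2.38 ± 0.38. The unnamed gene ENSMUSG00000092267 rose by 1.15 ± 0.22. Of the 3 genes that fell, Sis, the brush border sucrase-isomaltase, fell by 1.67 ± 0.45 and Hectd4 fell by 2.19 ± 0.60.

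By list, beside 1.47% of all genes, 5 of 10 tested fetal and revival genes passed (all higher), 2 of 4 YAP targets, and 0 of 7 crypt base stem cell genes (1 below an unadjusted 0.05). The low-count filter could admit list members by the Clu-positive nuclei alone, and the lists were put together with earlier results known. These list counts are therefore no independent evidence of direction. The count leaned on single samples. Without SCM replicate 2, which held most of the Clu-positive nuclei, 0 genes were called in edgeR (193 below an unadjusted 0.05), without SCM replicate 3 there were 12, and DESeq2 on all 3 samples called 1. At full depth, where 5 samples entered, 1212 of 8743 genes (13.9%) passed. A comparison that all 6 samples could enter was therefore added after the values had been seen. It set the nuclei of cluster 7 with at least 5 Clu UMIs against those with none, at full depth. Here 876 of 7340 genes (11.9%) passed, 560 higher and 316 lower, with 1382 without SCM replicate 1, 490 without QCM replicate 2, 521 without SCM replicate 3 and 584 to 694 without any other sample. After thinning to 1000 UMIs it was 63 of 680 genes (9.26%), 28 higher and 35 lower, so the balance of directions turned.

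Most of the tested fetal and revival genes were higher in the nuclei with many Clu UMIs. Of the 25 genes in the list, 16 were tested and 14 passed, all of them higher, beside 11.9% of all genes. Fewer of them passed against nuclei without Clu above a floor of depth, called like depth here although they remained shallower, as given below. The median log2 ratio of the 16 was 2.26, against -0.04 over all genes tested. The list was put together with earlier results of these data known, and several of its genes mark cluster 7. The low-count filter could also admit a gene by its level in the high nuclei alone. The count is therefore no independent evidence of direction.

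Msln was at 575, 1977 and 1155 CPM in the nuclei with at least 5 Clu UMIs of QCM replicates 1, 2 and 3 and at 398, 429 and 433 CPM in those of SCM replicates 1, 2 and 3. In nuclei with no Clu UMI it was at 22.8, 21.5 and 98.2 CPM in QCM and 0, 35.3 and 37.7 CPM in SCM. Every sample showed the rise, and the log2 ratio was 4.41 ± 0.44 (adjusted p = 1.9e-05). How many of all tested genes rose in every sample was not counted, here or for the genes below. Anxa1 was at 426, 239 and 106 CPM in QCM and 221, 372 and 274 CPM in SCM in the high nuclei, against 27.9, 15.6 and 34.4 CPM and 93.9, 115 and 42.2 CPM in those with none. It was higher in 6 of 6 samples within the sample, although the ranges overlapped across samples (log2 ratio 2.67 ± 0.33, adjusted p = 0.00013).

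Ly6a, which encodes the surface antigen Sca-1 of the injured crypt, was at 73.1, 187 and 66.4 CPM in QCM and 148, 136 and 131 CPM in SCM in the high nuclei. With no Clu UMI it was at 5.07, 23.4 and 29.5 CPM in QCM and 31.3, 26.5 and 13.5 CPM in SCM. Its log2 ratio was 2.80 ± 0.31 (adjusted p = 5.65e-05). Ly6d rose by 3.10 ± 0.29, Anxa10 by 3.09 ± 0.41, the interleukin-1 receptor antagonist Il1rn by 2.25 ± 0.35, Krt7 by 2.01 ± 0.32 and the epidermal growth factor receptor ligand Areg by 2.04 ± 0.35. Cd44, an adhesion receptor, did not pass at 0.79 ± 0.36 (adjusted p = 0.175).

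YAP target genes were mostly too low to be tested in these nuclei, since 7 of 21 entered. Of these, 4 passed, all higher, with a list median of 1.37 on the log2 scale. The low-count filter could admit a gene by its level in the high nuclei alone, so the shared direction is no independent evidence. F3, the coagulation tissue factor, rose by 2.82 ± 0.35, Myof by 3.31 ± 0.51, Ptpn14 by 2.59 ± 0.37 and Asap1 by 1.37 ± 0.30. The widely used targets Ccn1 and Ccn2 were not among those tested, and in the high nuclei they were at 0 to 42.6 and 0 to 35.4 CPM. Of the 14 genes for YAP and its partners, 13 were tested and 2 passed, a share near the 11.9% of all genes. These were Wwtr1, which encodes the YAP paralog TAZ, at 2.20 ± 0.39 and the DNA-binding partner Tead4 at 3.11 ± 0.50, while Yap1 itself was at -0.18 ± 0.24 (adjusted p = 0.703) and Tead1 at -0.07 ± 0.26 (adjusted p = 0.895).

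Of the 12 crypt base stem cell genes listed, 10 were tested and 4 passed, all lower, with a list median of -0.93, where 11.9% of all genes passed. Sox9 and Rnf43 were at 0.40 ± 0.27 and 0.06 ± 0.26 and did not pass (adjusted p = 0.359 and 0.924). Against nuclei of like depth, which remained shallower than the high ones, 1.3% of all genes passed and 0 of these 7 did (2 below an unadjusted 0.05). Smoc2 was at -0.87 ± 0.28 and Lrig1 at -0.76 ± 0.25 there (adjusted p = 0.171 each), and Olfm4 was not tested. Lgr5, the receptor that marks crypt base stem cells, was at 28.6, 102 and 106 CPM in the high nuclei of QCM replicates 1, 2 and 3 and at 177, 177 and 417 CPM in those of SCM replicates 1, 2 and 3. With no Clu UMI it was at 191, 506 and 293 CPM in QCM and 141, 636 and 508 CPM in SCM. It was lower in 5 of 6 samples, the exception being SCM replicate 1 with 3 high nuclei and 8 without Clu, and fell by 1.33 ± 0.35 on the log2 scale (adjusted p = 0.0209). Olfm4 fell by 4.05 ± 0.56, Smoc2 by 1.50 ± 0.31 and the growth factor receptor inhibitor Lrig1 by 1.45 ± 0.32. Olfm4 was low in cluster 7, at 24.8 CPM over its nuclei of all samples, so the size of its fall is uncertain.

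**Figure D4:**
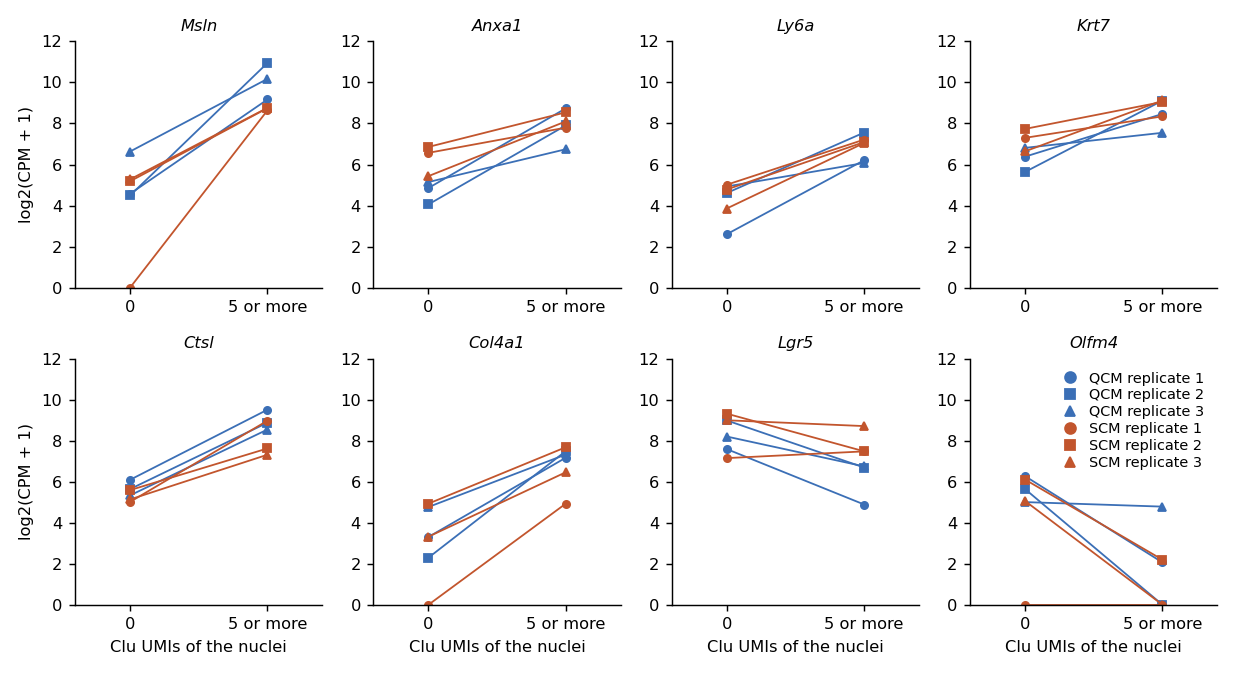
Level of 8 genes as log2(CPM + 1) in cluster 7 nuclei with no Clu UMI and with 5 or more, with a line for each sample (blue QCM, orange SCM). Msln, Anxa1, Ly6a, Krt7, Ctsl and Col4a1 rise in all 6 samples; Lgr5 falls in 5 of 6, and Olfm4 falls in 5 with the SCM replicate 1 line at 0 on both sides.

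The genes with the smallest adjusted p in this comparison came mostly from outside these lists. The lysosomal protease genes Ctsd and Ctsl rose by 2.56 ± 0.24 and 3.00 ± 0.28, and the basement membrane collagen genes Col4a1, Col4a2 and Col18a1 by 3.46 ± 0.35, 3.42 ± 0.36 and 4.0 ± 0.42. Srgap1, which encodes a GTPase-activating protein, rose by 3.24 ± 0.29, the decoy receptor Tnfrsf23 by 3.83 ± 0.35, the membrane-type metalloprotease Mmp15 by 2.90 ± 0.27, the retinol dehydrogenase Rdh10 by 2.98 ± 0.32 and the unnamed Gm37376 by 2.86 ± 0.30. The lower genes with the smallest adjusted p were Cps1, which makes carbamoyl phosphate for citrulline synthesis, at -2.71 ± 0.27, Dab1 at -2.67 ± 0.26, the prolactin receptor Prlr at -2.60 ± 0.30, the flippase Atp8b5 at -2.89 ± 0.34 and Gm8979 at -3.35 ± 0.34. Each of these 15 moved in the same direction in 6 of 6 samples. They were chosen by their adjusted p in these same samples, so this is no separate evidence.

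Among the 8 genes closest to Clu over clusters, 7 also passed inside cluster 7, beside 11.9% of all genes. These 8 were chosen on sums that include the same nuclei, so the count is no independent evidence. Besides Anxa1, Krt7 and S100a6, they were Ccnd2 at 1.55 ± 0.27, Ccnd1 at 1.94 ± 0.32, Ctnnb1 at 1.30 ± 0.26 and Lmna at 1.84 ± 0.24. Kif5b, a motor for transport along microtubules, did not pass at 0.56 ± 0.23 (adjusted p = 0.12). At like depth 3 of the 8 passed, which were Lmna, S100a6 and Ccnd1.

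Chaperones and the partners of clusterin were counted in the same way. Of 20 heat shock and endoplasmic reticulum chaperone genes 14 were tested and 1 passed, Hsp90aa1 at 0.86 ± 0.27 (adjusted p = 0.0488), with a list median of 0.05, beside the 11.9% of all genes that passed. Of 11 clusterin receptors and complement regulators 4 were tested and 1 passed, Cd55, which speeds the decay of complement convertases, at 1.55 ± 0.26. The clusterin receptor genes Vldlr and Lrp8 were at 0.22 ± 0.30 and -0.20 ± 0.32 (adjusted p = 0.704 and 0.742), and Trem2 had no UMI in either kind of nucleus.

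Depth was examined as a separate condition, since nuclei with many Clu UMIs were deep. In QCM replicate 3 and the SCM replicates, nuclei without Clu that held at least as many UMIs as the shallowest high nucleus of the sample could be used instead (17, 5, 14 and 172 nuclei). QCM replicates 1 and 2 had 0 such nuclei. Their medians remained lower, at 3179 to 15690 UMIs against 10978 to 30013. In this narrower comparison 48 of 3706 genes (1.3%) passed, all 48 of which were among the genes called with the full set of nuclei and in the same direction. Its high nuclei and its nuclei without Clu were part of that full set, so the overlap is largely built in. Msln was at 3.46 ± 0.42, Ctsl at 2.97 ± 0.37, Ctsd at 2.33 ± 0.27, Ly6d at 2.90 ± 0.39, Cps1 at -2.17 ± 0.39 and Dab1 at -2.49 ± 0.32. Of 14 tested fetal and revival genes 3 passed, all higher, with a list median of 1.41 against 0.02 over all genes. The limits of the filter and the list given above apply here too, so this direction is no independent evidence. Anxa1 was at 1.59 ± 0.38 and Lgr5 at -0.54 ± 0.32 and did not pass (adjusted p = 0.0779 and 0.463). Of 5 tested YAP targets 1 passed, F3 at 1.99 ± 0.29, while Myof at 1.80 ± 0.43 and Asap1 at 0.54 ± 0.33 did not (adjusted p = 0.0779 and 0.475), and Ptpn14 was not tested. The calls of Hsp90aa1 and Cd55 were also lost, at 1.04 ± 0.24 and 1.13 ± 0.27 (adjusted p = 0.0741 and 0.0775). Wwtr1 and Tead4 were not tested at like depth.

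The genes that went with Clu inside cluster 7 were compared between QCM and SCM. For the nuclei with at least 5 Clu UMIs against none, the interaction of Clu status and medium passed for 1 of 7340 genes (0.0136%), and 712 lay below an unadjusted 0.05. That gene, Ptprr, a receptor-type tyrosine phosphatase, differed by -3.58 ± 0.54 on the log2 scale (SCM minus QCM, adjusted p = 0.0376). It was called again, among 8 genes, without SCM replicate 1, and 0 genes were called without any 1 of the other 5 samples (318 to 857 below an unadjusted 0.05). Of 16 fetal and revival genes 0 passed (8 below an unadjusted 0.05), with a median interaction of -1.15 against 0.05 over all genes, and of 14 chaperones 0 passed (5 below), with a median of 1.01.

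The same comparison was made outside cluster 7. How many of these nuclei hold a Clu UMI as background, given the shares in cluster 8 above, was not tested. All 6 samples entered, with 21 to 664 Clu-positive nuclei each after thinning, and the Clu-negative nuclei were weighted to the same makeup of clusters. Of 3461 genes tested, 102 (2.95%) passed, all of them higher in Clu-positive nuclei. Without SCM replicate 2 there were 20, without SCM replicate 3 18 and without QCM replicate 3 34. Of these 102 genes, 54 encode ribosomal proteins, of which 82 were tested, with a median log2 ratio of 0.21 over the 82. Inside cluster 7, 0 of 79 ribosomal protein genes passed in the same thinned comparison, with a median of -0.04. The direct test between the places, described below, did not pass for Rpl12, Rpl26, Rpl3, Rpl36 or Rps2 (edgeR adjusted p = 0.491 to 0.773). A difference between the places is therefore not shown for these genes. Ribosomal protein genes have near-identical copies in the genome among which reads may be split.

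The gene with the smallest adjusted p outside cluster 7 was Gm23935, an unnamed model. It was at 259, 1648 and 899 CPM in Clu-positive nuclei of QCM replicates 1, 2 and 3 and at 524, 1197 and 1027 CPM in those of SCM replicates 1, 2 and 3. In the weighted Clu-negative nuclei the level was at 218, 431 and 687 CPM in QCM and 298, 623 and 706 CPM in SCM. It was higher in 6 of 6 samples, with a log2 ratio of 0.83 ± 0.07 (adjusted p = 1.2e-16). The rise was small in QCM replicate 1 and largest in QCM replicate 2, a spread that this SE and p do not cover. The Clu-negative counts were weighted and rounded, which the fit did not take into account. Rn7sk, the small nuclear RNA that holds back transcription elongation, was at 0.70 ± 0.08, Gm26917 at 0.42 ± 0.06, Lars2 at 0.30 ± 0.05, β-actin (Actb) at 0.34 ± 0.05, and the ribosomal protein genes Rpl12, Rpl36, Rpl26, Rps2 and Rpl3 between 0.27 and 0.30. Some of these genes were called by Clu status in both places. Of 2522 genes tested in both, 22 were called inside and 100 outside, and 5 in both with the same direction, namely Gm23935, S100a6, Actb, Krt19 and S100a11. Inside cluster 7, Gm23935 was at 0.94 ± 0.23 and Actb at 0.83 ± 0.22 (adjusted p = 0.00507 and 0.0197). With at least 5 Clu UMIs against none, however, Gm23935 was lower inside cluster 7, at -1.91 ± 0.29 (adjusted p = 0.000486), as were Rn7sk at -2.28 ± 0.48, Gm26917 at -1.81 ± 0.30 and Lars2 at -1.26 ± 0.25. These comparisons differ in place, Clu threshold and depth. At like depth Gm26917 was still lower, at -1.77 ± 0.31 (adjusted p = 0.0343), while Gm23935 at -1.68 ± 0.46, Rn7sk at -1.24 ± 0.61, Lars2 at -1.22 ± 0.30 and Actb at 1.88 ± 0.46 did not pass (adjusted p = 0.11, 0.373, 0.0883 and 0.0824). Beside 2.95% of all genes, S100a6 was the 1 of 6 tested fetal and revival genes that passed, at 0.53 ± 0.06, and Calr, the endoplasmic reticulum lectin calreticulin, the 1 of 10 tested chaperones, at 0.38 ± 0.09.

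The stem cell and YAP lists were counted beside the 2.95% of all genes called outside cluster 7, and for lists this short a count of 0 does not set them apart. Of 8 crypt base stem cell genes tested 0 passed (1 below an unadjusted 0.05), with Lgr5 at -0.10 ± 0.06. Of 2 YAP target genes and 8 genes for YAP and its partners tested 0 passed (0 below an unadjusted 0.05), with Yap1 at 0.04 ± 0.11. In cluster 0 alone, the largest cluster, 0 of 5781 genes passed in edgeR (172 below an unadjusted 0.05), and Gm23935 was at -0.13 there. The interaction with medium outside cluster 7 passed for 0 of 3461 genes (0%), with 54 below an unadjusted 0.05. DESeq2, run on all clusters outside cluster 7 together, called 68 genes. At full depth edgeR called 0 of 11998 genes there (459 below an unadjusted 0.05).

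Whether the genes differed between the places was tested directly in the 3 samples that entered both. The interaction passed for 20 of 5519 genes (0.362%), 14 with a larger ratio inside cluster 7 and 6 with a smaller one, and the count was 22 when QCM replicate 3 was left out, 1 when SCM replicate 2 was and 7 when SCM replicate 3 was. Neat1 had a log2 ratio larger by 1.10 ± 0.15 inside (adjusted p = 2.52e-09), Apob by 1.37 ± 0.22, and ENSMUSG00000092267 by 1.09 ± 0.19. Sis differed by -1.81 ± 0.43. Cd44 was larger inside by 1.28 ± 0.28 and Myof by 1.69 ± 0.44 (adjusted p = 0.00664 and 0.0428), while S100a6, higher with Clu in both places, differed by 0.64 ± 0.18 and did not pass (adjusted p = 0.0892).

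**Figure D5:**
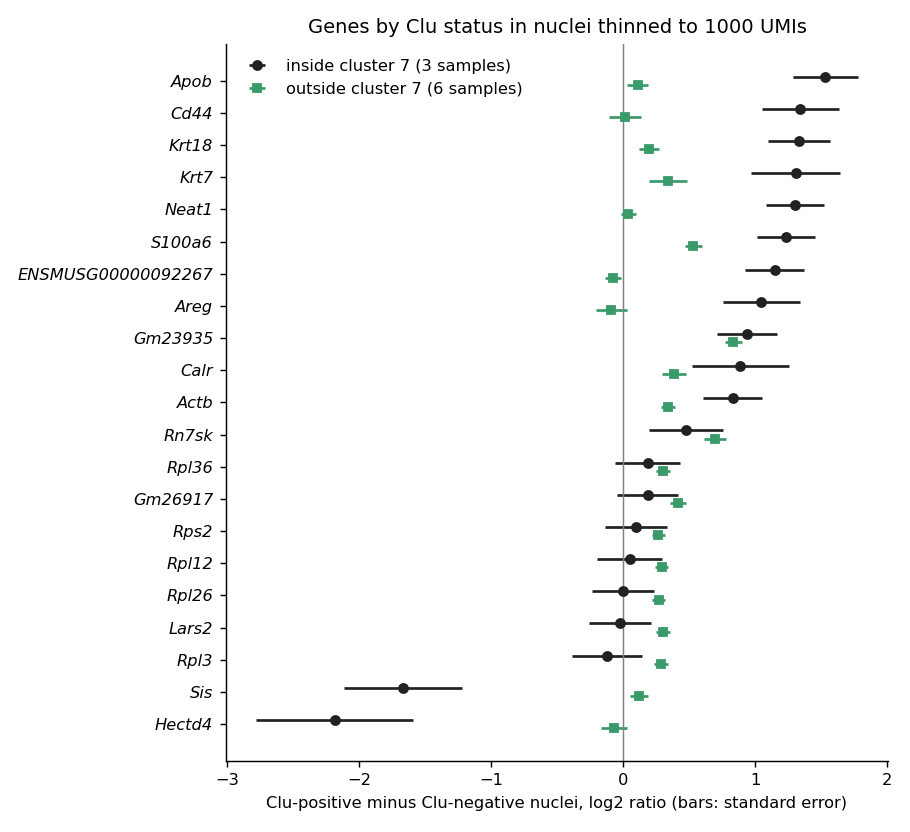
Log2 ratio of Clu-positive to Clu-negative nuclei, thinned to 1000 UMIs, inside cluster 7 (black circles, 3 samples) and outside it (green squares, 6 samples), with standard errors, for the named genes that were tested in both places. Apob, Krt18 and Neat1 are above 1 inside and at 0.11, 0.20 and 0.04 outside. The ribosomal protein genes are between -0.13 and 0.18 inside and between 0.27 and 0.30 outside.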

How the data were processed

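Nuclei of 3 QCM and 3 SCM organoid samples were profiled with a 3′ droplet kit. Per the labels, reads were aligned with Cell Ranger 2.1.1 to mm10, and the authors deposited UMI counts per gene and nucleus after removing nuclei with outlying mitochondrial fraction, totals or features. The deposited cluster numbers and the deposited mitochondrial fraction were used as given. Symbols matched 31244 of 31319 gene identifiers, and coordinates are from GENCODE M21. Some genes are not reported here.

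All 38154 nuclei were kept. Scrublet (scanpy 1.11.5) marked 261 (0.684%), nearly all in SCM replicate 1, so it was not relied on, and an alternative leaves out the 6% of nuclei with the highest scores. Sample totals were 4071926 to 41035733 UMIs.

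UMI counts were summed per sample (at least 10 nuclei) and place, or per sample and Clu status, and fitted in R 4.3.3 with edgeR 4.0.16 (quasi-likelihood, TMM, filterByExpr), with Benjamini-Hochberg adjustment over all genes tested and a threshold of 0.05; DESeq2 1.42.0 was an alternative. Clu-status fits had the sample as a block and were run on nuclei thinned to 1000 UMIs, except the comparison of at least 5 Clu UMIs, which used full depth and samples with 3 or more such nuclei; Clu was removed from the sums. The scripts were tested on simulated data. Clu, the gene lists, the markers and the tests were chosen with earlier results of these data known. Named genes were the 12 higher and 5 lower with the smallest adjusted p per comparison, 3 per direction for the interaction, list members called, the 8 genes most alike over clusters, and Lgr5, Olfm4, Anxa1, Ly6a, Ccn1, Ccn2 and Yap1. Ptprr, S100a6 in the interaction, Krt19, S100a11, Fn1, and genes given as examples that did not pass were picked with their values in view. The comparison of at least 5 Clu UMIs against none, with its versions, and both interactions with medium were added after seeing the data.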

Additional observations from a re-analysis of the deposited data

Results flagged for a closer look

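The ratio of Clu-positive to Clu-negative nuclei differed between the inside and the outside of cluster 7, by the interaction test, for the genes given here. The log2 difference was 1.10 for Neat1, 1.37 for Apob, 1.09 for ENSMUSG00000092267, -1.81 for Sis and -7.86 for Elmsan1. The value for Elmsan1 rests on 0 UMIs in the thinned Clu-positive nuclei of cluster 7 in all 3 samples, so its size is not a bound. At full depth Elmsan1 was higher in the cluster 7 nuclei with at least 5 Clu UMIs than in those with none in 3 of 6 samples (log2 ratio 0.03 ± 0.31). Between the media, the difference by Clu status inside cluster 7 itself differed for Ptprr, by -3.58 (SCM minus QCM).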

How the results depend on the processing

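Clu kept the direction SCM above QCM under every alternative run. Leaving out 1 sample at a time gave log2 ratios of 1.42 to 3.15 over all nuclei, 0.81 to 2.31 in cluster 7 (lowest without SCM replicate 2) and 1.38 to 2.59 outside it. Same-numbered samples deviated together with r = 0.30, 0.63 and 0.05, and since r for replicate 3 was low the numbers were not taken as pairs, although 5 of 6 samples correlated best with their own number. With the replicate number as a block the log2 ratios were 2.18, 1.56 and 1.93, and the mean difference in Clu-positive share was 6.87 percentage points, which equals the unpaired value by construction. Genes called between the media rose from 0 to 28, 111 and 3 with DESeq2 (all nuclei, cluster 7, outside), and in cluster 7 to 440 without the low-count filter, 1 with library size alone and 1 with the block.

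The share of Clu UMIs in cluster 7 was 24.7% to 58.2% with 1 sample left out. Counts of called genes moved more. Inside cluster 7, against 39 genes, 117 were called after thinning to 2000 UMIs, 1212 without thinning, 1 with DESeq2, 0 without the low-count filter, 0 without the sample block, and 0 to 49 with 1 sample left out. The comparison of at least 5 Clu UMIs called 876, and 1601 with DESeq2, 63 after thinning, 48 at like depth and 490 to 1382 with 1 sample left out. Outside, against 102, there were 0 without thinning, 27 with library size alone, 2 without the filter, 0 without the sample block, 172 with unweighted clusters, 0 in cluster 0 alone, and 18 to 113 with 1 sample left out (20 without SCM replicate 2, 18 without SCM replicate 3, 34 without QCM replicate 3). The interaction with place called 1 to 22 and that with medium inside cluster 7 0 to 8 with 1 sample left out. The cause of these shifts was not tested. Outside cluster 7 the sign turned in cluster 0 alone for Gm23935 (-0.13), Gm26917 (-0.12) and Lgr5 (0.021), for Lgr5 at 2000 UMIs (0.031), and for Yap1 at 2000 UMIs (-0.10), unthinned (-0.0173), with library size alone (-0.0154) and without the filter (-0.011).

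Few nuclei limit cluster 7: after thinning it held 6, 4 and 10 Clu-positive nuclei in QCM and 2, 70 and 39 in SCM.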
